A study of Rattus norvegicus with 6 samples.

Results

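The UDP-glucuronosyltransferases of the Ugt1a and Ugt2b families were described in the renal cortex of rats dosed with DNPT and of vehicle rats. Their members were the array probes that were not controls and whose RefSeq accession belongs to a gene with a symbol beginning with Ugt1a or Ugt2b. This gave 11 of the 15645 named genes on the array, read by 17 of 61537 probes. Of these, 13 probes for 8 genes were well above background on all 6 arrays and were tested. The remaining 4 probes, for Ugt2b, Ugt2b1 and Ugt2b10, were above background on at most 1 array. No member lay close to the minimum of 3 arrays.

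Both groups were male Crl:CD(SD) Sprague-Dawley rats, bought at 5 weeks of age and kept on a basal diet. The DNPT group was 3 rats that received the N-nitroso compound N,N'-dinitrosopentamethylenetetramine at 200 mg/kg/day over 4 weeks. The vehicle group was 3 rats given corn oil over the same period. Each rat gave 1 sample of renal cortex RNA, read on a 1-colour Agilent array. Signals are log2 values of the processed signal over the 75th percentile of the same array. A change is the mean of the DNPT rats minus the mean of the vehicle rats, given with its standard error (SE), and means are given with their SD over n = 3 rats. The levels of different probes are not comparable with each other.

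UDP-glucuronosyltransferases are membrane enzymes of the endoplasmic reticulum that transfer glucuronic acid from UDP-glucuronic acid to bilirubin, hormones, phenols and drugs, which makes these compounds water soluble for excretion in bile and urine. The Ugt1a enzymes come from a single locus, in which each has a first exon and a promoter of its own and all share the remaining exons. The Ugt2b enzymes are separate genes of similar sequence in a cluster. In the kidney they act mainly in the proximal tubule, where glucuronides are also secreted into the urine. In the gene table used for names, all 8 protein-coding Ugt1a genes lie on chromosome 9 and share 1 end. The 9 protein-coding Ugt2b genes lie on chromosome 14 and have 9 different ends. Probes were present for 4 of those Ugt1a genes and 7 of those Ugt2b genes. Ugt1a8, Ugt1a7c, Ugt1a5, Ugt1a3, Ugt2b7l1 and Ugt2b34l1 had none under these names.

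The arrays had 42116 to 45167 probes well above background, and the correlations between pairs of arrays ran from 0.980 to 0.990. The 3 vehicle arrays and the array of DNPT rat 1 shared slide 1, which was scanned on another day than slide 2 with DNPT rats 2 and 3. No probe of 44305 had an adjusted p under 0.05 between the groups (limma with Benjamini-Hochberg adjustment), a share of 0%, while 5237 probes had an unadjusted p under 0.05 (11.8%). The array of DNPT rat 3 stood apart in liver transcripts, as given below with the dim Ugt2b probes. Proximal tubule markers were present in every rat: all 7 of 7 listed genes were measured, with changes that were all above 0 and a median of 0.09. Their summed linear signal over the array's 75th percentile was 1969, 2281 and 1959 in DNPT rats, against 1849, 1691 and 1902 in vehicle rats. In whole cortex, fewer cells of a type and less RNA per cell cannot be told apart. The family was chosen by the results of this same comparison, in which Ugt1a1 and Ugt1a6 read lower in DNPT rats, so the signals, changes and adjusted p-values of its probes are a description.

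The promoters of the Ugt1a and Ugt2b genes are shown because each gene starts from one of its own, including the Ugt1a genes that end in the same exons. All 11 genes matched the RefSeq promoter table of build GRCr8, from which the 250 bases before each start were read. The core of the element bound by the aryl hydrocarbon receptor, searched as GCGTG on both strands, was found in the promoter of Ugt1a6 and in none of the other 10 genes. It is present in 25.9% of the 33469 promoters in the table. In Ugt1a6 it lies on the forward strand from -133 to -129 relative to the start and is printed in capitals. The Ugt1a6 window is chr9:96194768-96195017 and the Ugt1a1 window is chr9:96248893-96249142, both on the forward strand.
Ugt1a6: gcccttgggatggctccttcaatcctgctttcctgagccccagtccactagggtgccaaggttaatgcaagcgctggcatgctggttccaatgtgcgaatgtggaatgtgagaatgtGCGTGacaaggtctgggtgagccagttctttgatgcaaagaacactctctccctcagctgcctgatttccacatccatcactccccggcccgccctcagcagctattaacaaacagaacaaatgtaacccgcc
Ugt1a1: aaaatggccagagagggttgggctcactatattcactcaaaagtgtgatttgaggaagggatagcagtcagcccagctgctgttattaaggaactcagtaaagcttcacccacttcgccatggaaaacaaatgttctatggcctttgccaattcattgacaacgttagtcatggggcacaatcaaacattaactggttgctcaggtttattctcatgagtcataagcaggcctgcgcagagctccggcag

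The 4 Ugt2b genes measured above background share a run of 25 identical bases in their promoters. It is printed in capitals within windows of 85 bases, with the window of Ugt2b, whose probes were near background, beside them. The run was found after the sequences were seen, as the longest stretch common to the promoters of those 4 genes. Its presence in all 4 was therefore fixed in advance. The run occurs in 7 promoters of the table (0.0209%), all on chromosome 14: Ugt2b15, Ugt2b35, Ugt2b37, Ugt2b7, Ugt2b, Ugt2b7l1 and LOC134478834. Its first base lies at -66 in Ugt2b37, at -78 in Ugt2b15, at -87 in Ugt2b35, at -90 in Ugt2b7 and at -74 in Ugt2b. The windows on the forward strand are chr14:21172040-21172124 for Ugt2b37, chr14:21122758-21122842 for Ugt2b15, chr14:21208324-21208408 for Ugt2b35, chr14:21251415-21251499 for Ugt2b7 and chr14:20985345-20985429 for Ugt2b. Of the 4 genes, Ugt2b37, Ugt2b15 and Ugt2b35 had brightest probes that were lower in DNPT rats, and Ugt2b7 had a probe that was higher. Sharing the run cannot be read against these directions, since the run was built from the same 4 genes.
Ugt2b37: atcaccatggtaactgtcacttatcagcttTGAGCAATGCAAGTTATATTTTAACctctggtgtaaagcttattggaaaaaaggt
Ugt2b15: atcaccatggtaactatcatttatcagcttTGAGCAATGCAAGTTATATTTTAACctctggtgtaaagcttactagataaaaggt
Ugt2b35: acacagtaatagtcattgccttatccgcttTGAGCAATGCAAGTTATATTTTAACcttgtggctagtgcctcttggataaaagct
Ugt2b7: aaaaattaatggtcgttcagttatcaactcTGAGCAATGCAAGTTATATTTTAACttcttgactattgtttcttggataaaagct
Ugt2b: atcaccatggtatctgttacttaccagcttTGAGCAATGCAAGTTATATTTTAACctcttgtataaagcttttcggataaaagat

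Further motifs were searched on both strands of all family promoters: TGACNNNGC for the antioxidant response element (in 10.1% of all promoters), and TTATGTAA (0.828%) and TTACGTAA (0.108%) for the D box bound by Dbp and Nfil3. None of the 11 windows held any of these letters. These windows differ in letters from one family gene to the next, and neither the GCGTG of Ugt1a6 nor the shared run was set against the changes in a test.

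Most Ugt1a probes read lower in DNPT rats. The 7 probes had a median change of -0.37, with 6 below 0 and 1 above, beside a median of 0.01 and 48.1% below 0 over all 44305 tested probes. In 5 of the 7, every DNPT rat lay below every vehicle rat, and in 0 above. Over all probes, groups did not overlap with DNPT lower in 8.3% and with DNPT higher in 11.5%. Set against the vehicle mean, the median Ugt1a change was -0.47 in DNPT rat 1, -0.28 in DNPT rat 2 and -0.42 in DNPT rat 3, so the rat on slide 1 and the pair on slide 2 lay on the same side.

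Ugt1a1, the enzyme that conjugates bilirubin, had the smallest SE of the tested family probes. Its probe read 0.66, 0.81 and 0.69 in DNPT rats, against 1.49, 1.48 and 1.56 in vehicle rats. All DNPT rats were low, and the groups were separated by far more than their own spread. The mean was 0.72 ± 0.08 in DNPT rats and 1.51 ± 0.04 in vehicle rats, a change of -0.79 (SE 0.08, 95% interval -1.0 to -0.59), which put DNPT rats at 57.6% of the vehicle level (from the difference of log2 means, as are all such shares here). On slide 1 alone, DNPT rat 1 lay at -0.85 from the vehicle mean. The adjusted p was 0.132 (limma over all 44305 probes), and over all 19 alternatives it ran from 0.0415, without DNPT rat 1, where 540 probes of the array were called lower, to 0.565. Without DNPT rat 1 the groups coincide with the slides and the scan days, so treatment and slide cannot be told apart in that fit.

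Ugt1a6, which conjugates small planar phenols, was read by 3 probes, 1 of them matched to another RefSeq transcript than the other two. Its brightest probe, A_64_P009265, read 5.56, 5.70 and 5.46 in DNPT rats, against 5.91, 5.80 and 5.94 in vehicle rats. Probe A_64_P025630 read 3.45, 3.78 and 3.59 in DNPT rats, against 4.05, 3.99 and 4.0 in vehicle rats. Probe A_44_P432358, on the other transcript, read 0.34, 0.05 and 0.21 in DNPT rats, against 0.55, 0.69 and 0.47 in vehicle rats. All 3 Ugt1a6 probes thus read lower in every DNPT rat than in any vehicle rat, by a smaller step than Ugt1a1. Their changes were -0.31 (SE 0.10), -0.41 (SE 0.11) and -0.37 (SE 0.11), which are 80.7%, 75.3% and 77.5% of the vehicle level. Their 95% intervals ran from -0.55 to -0.07, from -0.67 to -0.15 and from -0.64 to -0.09. The adjusted p-values from limma were 0.389, 0.359 and 0.382. Within slide 1, DNPT rat 1 lay at -0.32, -0.56 and -0.23 from the vehicle mean. The order of the rats was not shared, since DNPT rat 2 was the highest DNPT rat on the first pair of probes and the lowest on the third.

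The probes of Ugt1a2, an isoform of the rat locus, disagreed with each other. Probe A_44_P432355 read 2.68, 2.83 and 2.67 in DNPT rats, against 3.12, 3.10 and 3.22 in vehicle rats. Here the groups did not overlap, with a change of -0.42 (SE 0.09, 95% interval -0.64 to -0.21), 74.6% of the vehicle level and an adjusted p of 0.306 (limma). The brighter probe A_44_P402641 read 2.84, 3.92 and 3.80 in DNPT rats, against 4.15, 4.08 and 3.12 in vehicle rats. On this probe 1 rat of each group, DNPT rat 1 and vehicle rat 3, was low and the groups overlapped, with a change of -0.26 (SE 0.40, 95% interval -1.25 to 0.72). Without DNPT rat 1 its change was 0.076.

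Ugt1a9, whose human namesake conjugates phenols, did not share the direction. Its single probe read -2.89, -3.30 and -2.21 in DNPT rats, against -3.15, -3.05 and -2.87 in vehicle rats. DNPT rat 2 was the lowest of all rats and DNPT rat 3 the highest, so the groups overlapped. The change was 0.22 (SE 0.28, 95% interval -0.47 to 0.92), and it was -0.072 without DNPT rat 3. The files used here hold no probe sequences, so whether a Ugt1a probe lies in a first exon or in the shared exons is not known from them. Signal from the shared exons cannot be assigned to 1 isoform.

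**Figure D1:**
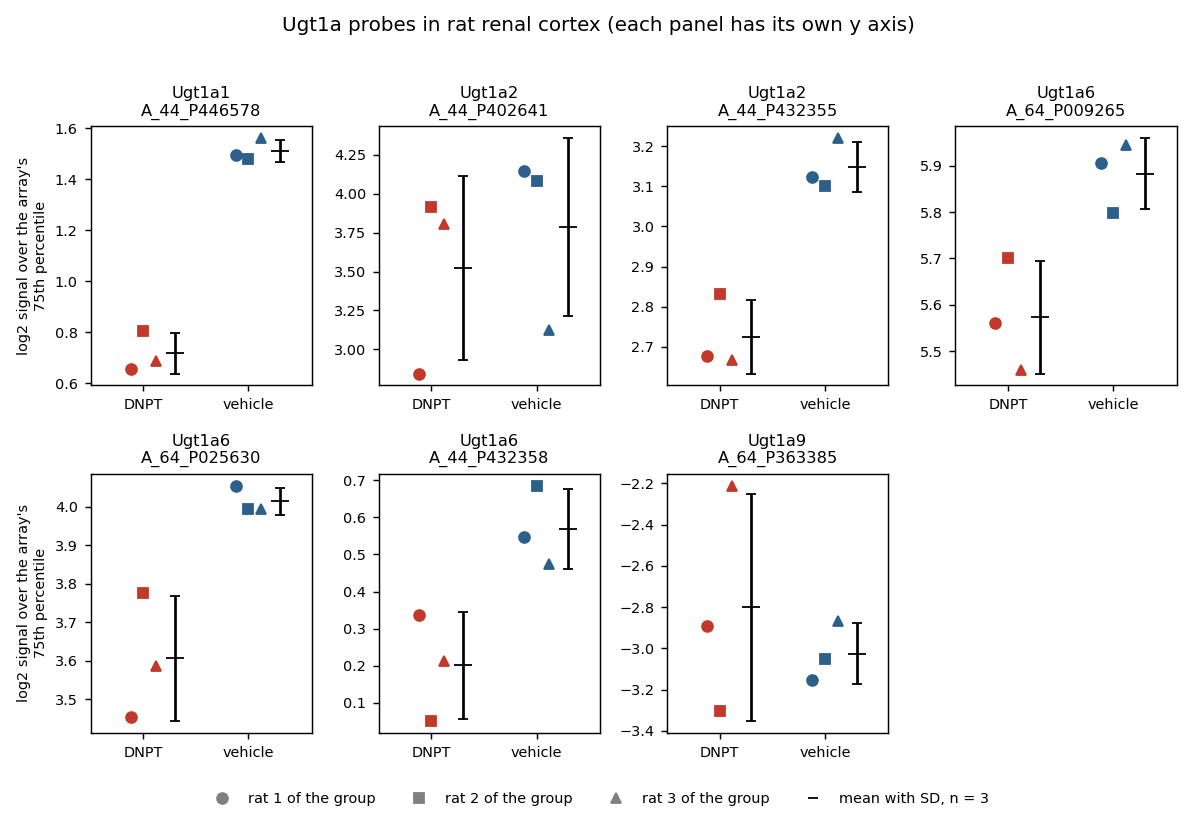
Signal of each Ugt1a probe in each rat, on the y axis as log2 over the array's 75th percentile, with DNPT rats in red left of vehicle rats in blue, and bars for the mean with SD (n = 3). Each panel has its own y axis. The groups are apart on the probe of Ugt1a1, on all 3 probes of Ugt1a6 and on probe A_44_P432355 of Ugt1a2, and overlap on the other Ugt1a2 probe and on Ugt1a9.

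The Ugt2b probes went both ways. The 6 tested probes had a median change of -0.40, with 3 below 0 and 3 above. In 3 of the 6, every DNPT rat lay below every vehicle rat (8.3% of all probes), and in 1 above (11.5% of all probes). The median by rat was -0.76 in DNPT rat 1, -0.43 in DNPT rat 2 and -0.13 in DNPT rat 3, a wider spread (SD 0.314) than the Ugt1a median had over the same rats (SD 0.102). The 3 bright probes of Ugt2b37, Ugt2b15 and Ugt2b35 were the lower ones.

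Ugt2b37, a rat isoform of the cluster on chromosome 14, had the largest decrease among the tested family probes, on probe A_64_P099254. It read 2.36, 2.93 and 2.51 in DNPT rats, against 3.88, 3.90 and 3.63 in vehicle rats. All DNPT rats were low and the groups did not overlap. The mean was 2.60 ± 0.30 in DNPT rats and 3.80 ± 0.15 in vehicle rats, a change of -1.20 (SE 0.17, 95% interval -1.63 to -0.77), or 43.5% of the vehicle level. The adjusted p was 0.241 (limma). Within slide 1, DNPT rat 1 lay at -1.44 from the vehicle mean.

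Ugt2b35 and Ugt2b15, of which the human UGT2B15 is known for conjugating androgens, had the same order of DNPT rats. Ugt2b35 read 3.97, 4.93 and 4.58 in DNPT rats, against 5.48, 5.48 and 5.21 in vehicle rats. Its mean was 4.50 ± 0.49 in DNPT rats and 5.39 ± 0.15 in vehicle rats, a change of -0.90 (SE 0.26, 95% interval -1.52 to -0.27) or 53.7% of the vehicle level, with an adjusted p of 0.372 (limma). Ugt2b15 probe A_44_P247784 read -0.34, 0.70 and 0.41 in DNPT rats, against 1.35, 1.27 and 0.96 in vehicle rats. Its mean was 0.26 ± 0.54 in DNPT rats and 1.20 ± 0.20 in vehicle rats, a change of -0.94 (SE 0.28, 95% interval -1.64 to -0.24) or 52.1% of the vehicle level, with an adjusted p of 0.382 (limma). On these probes and on the bright Ugt2b37 probe, DNPT rat 1 was the lowest and DNPT rat 2 the highest DNPT rat, and vehicle rat 3 was the lowest vehicle rat. Within slide 1, DNPT rat 1 lay at -1.42 from the vehicle mean on Ugt2b35 and at -1.54 on Ugt2b15, the extreme value of the DNPT group on each.

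Second probes of Ugt2b15 and Ugt2b37 gave other values. Ugt2b15 probe A_64_P011301 read -2.04, -2.36 and -1.13 in DNPT rats, against -1.97, -1.71 and -2.16 in vehicle rats, with a change of 0.10 (SE 0.33). Ugt2b37 probe A_42_P670179 read -3.94, -5.01 and -3.14 in DNPT rats, against -5.12, -4.54 and -4.61 in vehicle rats, with a change of 0.73 (SE 0.48). The groups overlapped on both, and DNPT rat 3 was the highest of all rats on both. Leaving out DNPT rat 3 brought these changes to -0.25 for the Ugt2b15 probe and 0.28 for the Ugt2b37 probe. The genes of this cluster are similar in sequence and no probe sequences were compared, so the assignment of any Ugt2b probe to 1 gene is uncertain.

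Ugt2b7, whose human namesake conjugates morphine and many drugs, was the member that read higher. Its probe read 0.18, -0.15 and -1.20 in DNPT rats, against -2.05, -1.86 and -1.26 in vehicle rats. The groups did not overlap, although DNPT rat 3 lay just above vehicle rat 3. The mean was -0.39 ± 0.72 in DNPT rats and -1.72 ± 0.41 in vehicle rats, a change of 1.33 (SE 0.40, 95% interval 0.34 to 2.32) or 2.51-fold, with an adjusted p of 0.383 (limma). Within slide 1 the difference was 1.90. The bright Ugt2b probes and the Ugt2b7 probe therefore lay on opposite sides in every DNPT rat.

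**Figure D2:**
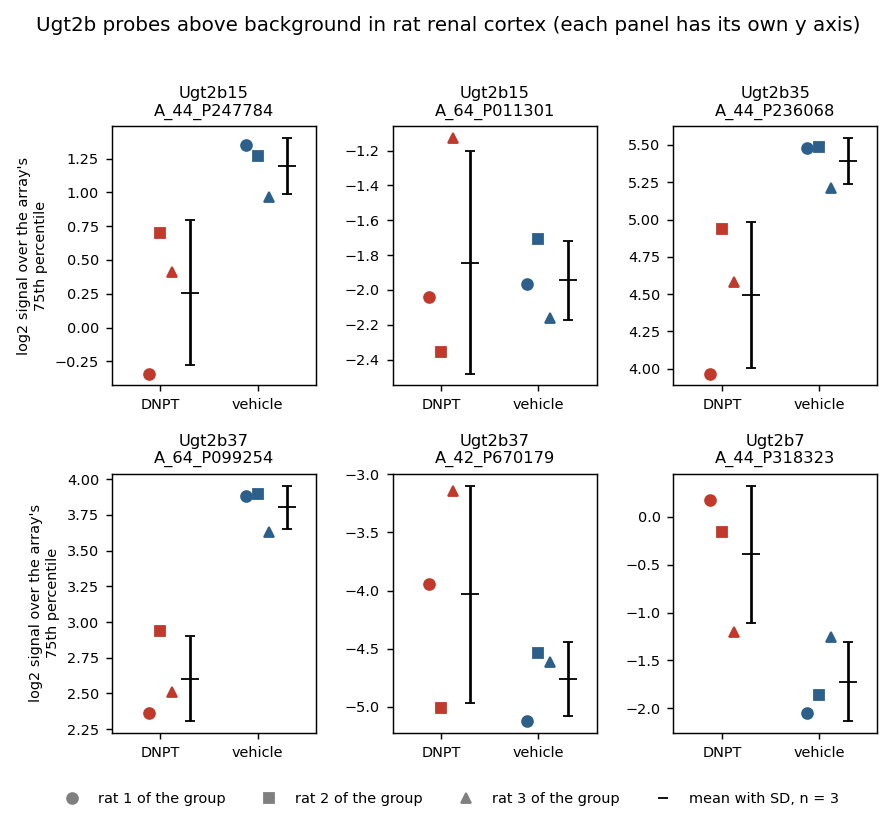
Signal of each tested Ugt2b probe in each rat, on the y axis as log2 over the array's 75th percentile, with DNPT rats in red left of vehicle rats in blue, and bars for the mean with SD (n = 3). DNPT rats lie below vehicle rats on the bright probes of Ugt2b37, Ugt2b15 and Ugt2b35 and above them on Ugt2b7, and the second probes of Ugt2b15 and Ugt2b37 overlap.

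Over both families, 8 of the 13 tested probes were lower and 1 was higher in DNPT rats without overlap, and 4 overlapped. Over all tested probes, 8.3% were lower and 11.5% were higher without overlap. Some of the 13 probes read the same gene, and with 1 probe per gene 5 were lower without overlap. An unadjusted p under 0.05 was found for 9 of the 13, beside 11.8% of all probes, and these are the values the family was chosen with. Adjusted p-values ran from 0.132 to 0.913 (limma), so none of the 13 passed.

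**Figure D3:**
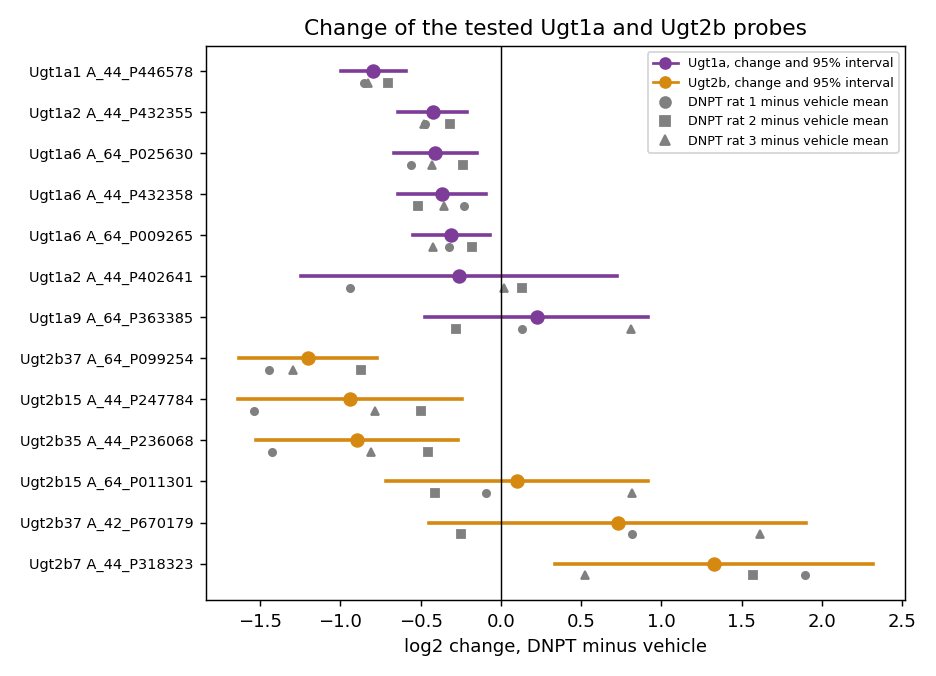
Change of each tested probe, DNPT minus vehicle on the log2 scale, on the x axis, with its 95% interval, Ugt1a probes above Ugt2b probes. Grey marks give each DNPT rat minus the vehicle mean: for Ugt1a1 they lie from -0.85 to -0.71, and for the Ugt2b37 probe A_42_P670179 from -0.25 to 1.61.

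The probes of Ugt2b, of Ugt2b1, which rat liver expresses, and of Ugt2b10 were near background. Ugt2b probe A_44_P426047 read -7.35, -7.70 and -2.96 in DNPT rats, against -8.13, -6.07 and -8.20 in vehicle rats. The other Ugt2b probe, A_64_P117003, read -7.79, -7.90 and -2.94 in DNPT rats, against -8.30, -6.31 and -8.30 in vehicle rats. Both were well above background in DNPT rat 3 alone, and vehicle rat 2 was the highest vehicle rat on both. Ugt2b1 read -7.47, -7.79 and -4.65 in DNPT rats, against -8.25, -8.37 and -8.00 in vehicle rats, again above background in DNPT rat 3 alone. Ugt2b10 read -5.84, -7.81 and -6.33 in DNPT rats, against -8.21, -8.35 and -7.17 in vehicle rats, and was above background on 0 arrays. A signal in 1 rat is no difference between the groups, and these 4 probes were not tested.

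The tested hepatocyte transcripts, apart from Apoc3 and Fga, were highest in the same DNPT rat and the same vehicle rat as the 2 Ugt2b probes. On Apoc3 and Fga, DNPT rat 3 was again the highest, but vehicle rat 2 was the lowest vehicle rat. Albumin (Alb) read -1.25, -4.73 and 3.76 in DNPT rats, against -4.72, 0.48 and -1.84 in vehicle rats. Transthyretin (Ttr) read -2.64, -6.06 and 2.80 in DNPT rats, against -6.43, -0.02 and -2.30 in vehicle rats. DNPT rat 3 was the highest of all rats on both, and vehicle rat 2 was the highest vehicle rat, as on both Ugt2b probes. Ugt2b1 shared the high value of DNPT rat 3 but had its lowest value in vehicle rat 2, and Ugt2b10 was highest in DNPT rat 1. Of the 12 genes in the hepatocyte list, 10 were tested, all 10 had changes above 0, and their median was 0.79. Their summed linear signal was 11.3, 10.68 and 42.0 in DNPT rats, against 9.96, 12.0 and 10.3 in vehicle rats. Apoc3 had the highest mean signal of these genes and weighs most on the sum in every rat but DNPT rat 3. Cps1 and Tat, 2 defining hepatocyte enzymes, were not well above background on any array. The part of liver RNA in the dim Ugt2b signals, and in the high values of DNPT rat 3 on the Ugt1a9 probe and on the second probes of Ugt2b15 and Ugt2b37, was not tested. On the Ugt1a1 probe DNPT rat 3 was not the highest DNPT rat, with 0.69 against 0.66 and 0.81 in the other DNPT rats. The same held for the bright probes of Ugt2b37, Ugt2b15 and Ugt2b35. The part of liver RNA in these signals was not tested either.

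**Figure D4:**
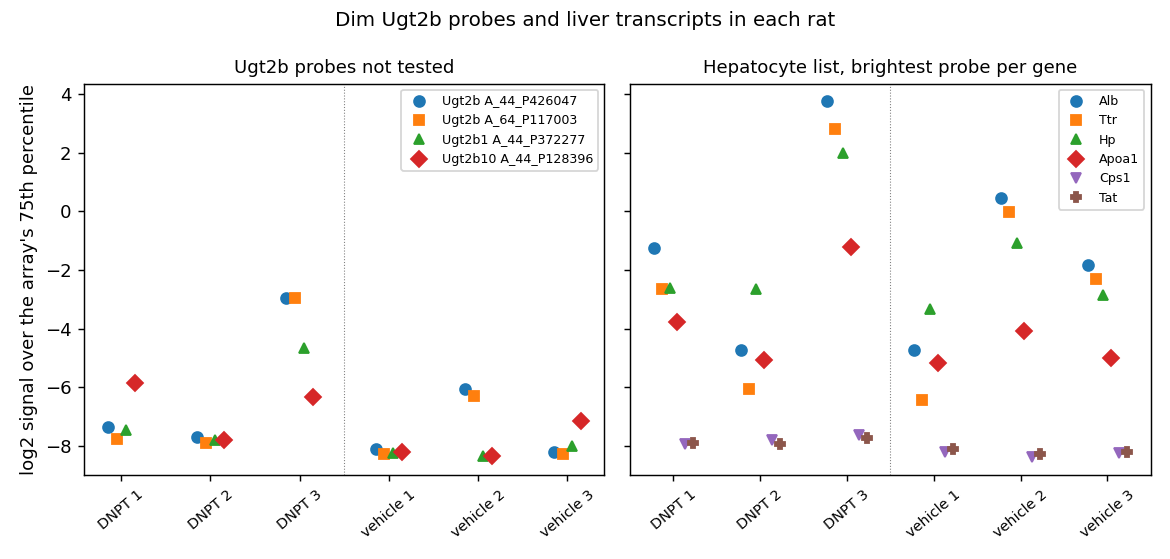
Signal in each rat, on the y axis as log2 over the array's 75th percentile, of the 4 Ugt2b probes that were not tested (left) and of genes of the hepatocyte list (right), DNPT rats left of vehicle rats. DNPT rat 3 is the highest on both Ugt2b probes, on Ugt2b1 and on Alb, Ttr, Hp and Apoa1, while Cps1 and Tat stay near -8 in every rat.

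Genes around glucuronidation were described from lists of their roles, each gene by its brightest tested probe, beside the 12687 named genes that were tested. None of the list genes passed an adjusted p of 0.05 (limma), as none of the 12687 did (0%). Over the named genes, DNPT rats lay above vehicle rats without overlap in 15% and below in 7.27%, and the median change was 0.04, with 42.5% below 0. The supply of the sugar donor stood near that median: 12 genes had a median change of 0.01, with 7 above 0 and 5 below. Ugdh, which makes UDP-glucuronic acid, read 2.37, 2.65 and 2.36 in DNPT rats, against 2.49, 2.74 and 2.75 in vehicle rats, a change of -0.20 (SE 0.13). Ugp2, which makes UDP-glucose, had a change of 0.02 (SE 0.11). Slc35b1, a nucleotide transporter of the endoplasmic reticulum, had a change of 0.26 (SE 0.09) and was the 1 member higher without overlap. Slc35d2, a nucleotide sugar transporter, had a change of 0.14 (SE 0.13).

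Both hydrolases of glucuronides read higher without overlap on their brightest probe, but not on all their probes. Gusb, the lysosomal beta-glucuronidase, read 0.25, 0.40 and 0.31 in DNPT rats, against -0.01, -0.01 and 0.14 in vehicle rats, a change of 0.28 (SE 0.09), but its tested probes ranged from -0.08 to 0.28. Abhd10, whose human enzyme cleaves acyl glucuronides, had a change of 0.16 (SE 0.11), and its other probe one of -0.04. Of the genes of the competing conjugation with sulfate, 6 of 8 were tested, with a median of 0.25, 4 above 0 and 2 below. The sulfotransferase Sult1c2 had a change of -0.57 (SE 0.11), without overlap, while Sult1c3 had a change of 0.78 (SE 0.40) with overlap. Sts, the steroid sulfatase, had a change of 0.42 (SE 0.13), and Papss2, which makes the sulfate donor, of -0.03 (SE 0.11). Ugt8, a galactosyltransferase of myelin lipids and the only tested gene of the 3 listed outside Ugt1a and Ugt2b, had a change of 0.29 (SE 0.21).

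The list of transporters for conjugate export and uptake, not all of them known for glucuronides, had a median of 0.21 over 15 genes, with 9 above 0 and 6 below. The export pumps Abcc4 and Abcc3 had changes of 0.35 (SE 0.15) and 0.24 (SE 0.10), the second without overlap, and Abcc2 had a change of -0.21 (SE 0.19). The uptake carriers Slco1a1 and Slco1a6 had the lowest changes, -1.38 (SE 0.92) and -0.75 (SE 0.77), and Slco1a4 had 0.41 (SE 0.16). The heme and bilirubin list holds genes that make heme and bilirubin, the substrate of Ugt1a1, but also an uptake carrier and the glutathione transferases Gsta1, Gsta2 and Gsta3. In this mixed list 10 of 11 changes were above 0 with a median of 0.18, and 1 gene was higher without overlap. Alas1, the first enzyme of heme synthesis, had a change of 0.30 (SE 0.13), Hmox1, which opens heme, of 0.10 (SE 0.35), and Blvra, which makes bilirubin, of -0.05 (SE 0.24). Fech, the last enzyme of heme synthesis, had 0.04 (SE 0.09) and the uptake carrier Slco1b2 0.28 (SE 0.43). Slco1b2 was dim, well above background in only 1 DNPT rat and 2 vehicle rats. Ugt1a1 at -0.79 lay below every gene of the heme and bilirubin list. The family was chosen because Ugt1a1 read lower in this comparison, so its place below the list is a description only.

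The list of regulators, most of them transcription factors known to act on Ugt genes, had a median of 0.04 over 17 tested genes of 18, with 9 above 0 and 8 below. Ppara, the fatty acid receptor, read 0.86, 1.03 and 0.61 in DNPT rats, against 0.11, -0.30 and -0.04 in vehicle rats, a change of 0.91 (SE 0.16). Ppard, its relative, had the lowest change of the list at -1.75 (SE 0.17), with an adjusted p of 0.132 (limma). Ahr, the aryl hydrocarbon receptor, read -3.91, -3.65 and -3.50 in DNPT rats, against -4.17, -3.95 and -4.14 in vehicle rats, a change of 0.40 (SE 0.13). Of the xenobiotic receptors, Nr1i2 (PXR) had a change of 0.18 (SE 0.09) and Nr1i3 (CAR) of 0.31 (SE 0.20). Nfe2l2 (Nrf2) had -0.02 (SE 0.10), Hnf4a 0.13 (SE 0.20) and Foxa1 -0.49 (SE 0.25). Ppara, Ahr and Nr1i2 were 3 of the 4 list genes that read higher without overlap, and Ppard was the 1 that read lower.

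Other targets of these factors had list medians above 0, as had all tested named genes (median 0.04). Nqo1 is in both the Ah receptor and the Nrf2 list. Of the Ah receptor targets, 3 of 7 were tested, with changes of 0.86 (SE 0.19) for the quinone reductase Nqo1, 0.11 (SE 0.08) for Aldh3a1 and -0.05 (SE 0.18) for Ahrr, a median of 0.11. Cyp1a1, the most used marker of that receptor, was above background on too few arrays to be tested. Of the CAR and PXR targets, 5 of 12 were tested, with a median of 0.30, 3 above 0 and 2 below. Among them Por had a change of 0.40 (SE 0.13), Ces2c of 0.39 (SE 0.14), Cyp2b2 of -0.15 (SE 0.19) and Abcb1a of -0.34 (SE 0.34). The 12 Nrf2 targets had a median of 0.13, with 8 above 0 and 4 below, from 0.86 for Nqo1 and 0.50 (SE 0.46) for Srxn1 to -1.84 (SE 0.61) for Gclm. Gclm was well above background in 2 DNPT rats and 3 vehicle rats. The other Srxn1 probe had a change of -0.27. Papss2, Abcc3, Hnf4a, Aldh3a1 and Cyp2b2 also had tested probes on both sides of 0. No DNPT rat had Slc7a11 well above background, so the vehicle rats were at least 1.29-fold brighter (a bound against the lowest signal above background). The list of D box factors (Dbp, Tef, Hlf and Nfil3) with the core clock genes Nr1d1 and Bmal1 had the widest changes. Dbp had 2.86 (SE 0.23), Nr1d1 2.58 (SE 0.36), Nfil3 -1.93 (SE 0.21) and Bmal1 -2.85 (SE 0.46), and all 5 tested of 6 were without overlap, 3 higher and 2 lower.

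**Figure D5:**
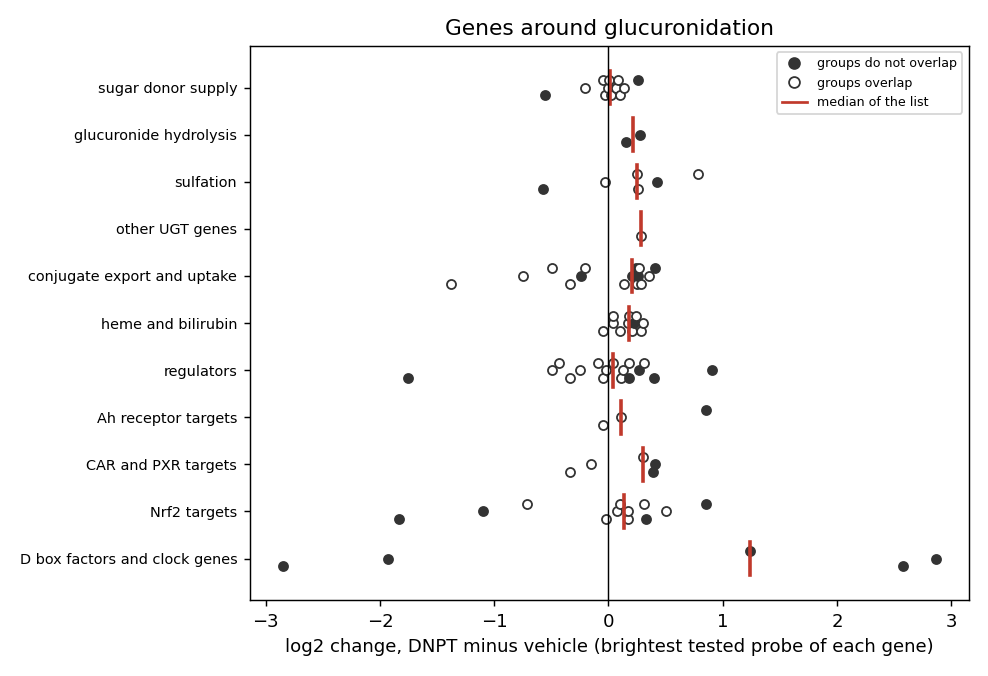
Change of each gene of the lists around glucuronidation, DNPT minus vehicle on the log2 scale, on the x axis, with a red line at the median of each list. Filled points are genes whose groups do not overlap. Most lists centre near 0, and the D box factors and clock genes lie from -2.85 to 2.86.

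The genes nearest in pattern to the Ugt1a1 probe were found from the root mean square distance between centred log2 signals over the 6 arrays, among 12667 named genes outside the Ugt families. Timd2, a ferritin receptor in mouse, lay at 0.0912, and Tdrd5, a germ cell protein, at 0.10, beside a median distance of 0.448. Timd2 had a change of -0.89 and Tdrd5 of -0.77. Havcr2, an inhibitory receptor of T cells, was the other gene among the nearest 3, but no DNPT rat had it well above background. Its distance is therefore not given, and the vehicle rats were at least 1.26-fold brighter. Within the families, the probe nearest to Ugt1a1 was A_44_P432355 of Ugt1a2 at 0.187. The Ugt1a6 probes followed at 0.203, 0.248 and 0.263. The bright probes of Ugt2b37, Ugt2b35 and Ugt2b15 lay at 0.264, 0.273 and 0.316. Beyond the median distance of 0.448 lay the other Ugt1a2 probe at 0.541 and the second Ugt2b15 probe at 0.618. Ugt1a9 at 0.621, the second Ugt2b37 probe at 0.972 and Ugt2b7 at 1.16 lay beyond it too. The comparison rests on 6 arrays, which differ by group in the Ugt1a1 pattern used.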

How the data were processed

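Renal cortex RNA of 3 DNPT and 3 vehicle rats, separate animals per the labels, was read with 1-colour Agilent arrays. The submitters' processing notes name Agilent Feature Extraction 10.7. In the deposited scanner files, the intensity used is the background-corrected processed signal of a spot, per the file headers. The value table that the authors deposited is a ratio on a linear scale, which matched the processed signal over a constant near its 75th percentile, with column medians of 0.112 to 0.116; it was used as an alternative. Its making and direction are not stated, and this match settled the direction.

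Control spots and 113 outlier-flagged values were left out. Log2 processed signal minus each array's 75th percentile was compared with limma 3.58.1 (R 4.3.3, lmFit and eBayes, two-sided, no covariates), probe by probe, for probes well above background on at least 3 arrays with at least 2 values per group, with Benjamini-Hochberg adjustment over 44305 probes at 0.05. The files hold no gene name column, so accessions were matched without versions to the RefSeq gene table of GRCr8: 28206 probes matched 1 gene, 0 several and 33331 none. The array design names another build, so gene coordinates are given only for RefSeq promoters. A list gene was its brightest tested probe; at-least folds set the bright group's mean over the other group's mean of the lowest signal above background or the probe's own, whichever was higher. Text names every family probe, the 2 highest and 2 lowest changes of a list, regulators and genes fixed by name, and the 3 nearest patterns; Slc7a11 and Gclm are the 2 lowest Nrf2 targets. Some items that fall under this rule are not reported here. Members and lists were chosen with earlier results of these data known. The number of arrays limits the precision. The procedure was tested on simulated data. Alternatives were other normalizations (for normexp, the median spot signal stood in for the planned mean signal), filters, scalings, a block for the slide or for the replicate number, slide 1 alone, array weights, an intensity trend and each rat left out. Tables and plots used Python 3.11.15, pandas 2.3.3 and matplotlib 3.10.9.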

Additional observations from a re-analysis of the deposited data

How the results depend on the processing

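The 3 against 3 design and slide 2, which holds DNPT rats alone, limit these values. Of 242 single-probe changes under 19 alternatives, 234 kept their direction and their side of the threshold. Over all probes, calls higher and lower in DNPT were 7 and 1 with normexp and 8 and 1 with an intensity trend; 1 and 2 were called higher with slide as a block and on slide 1 alone. With each rat left out in turn they ran from 0 to 42 higher and from 0 to 540 lower, both extremes without DNPT rat 1, and 3 were higher without vehicle rat 2. Family probes called lower ran from 0 to 1, the 1 being Ugt1a1 without DNPT rat 1. In that fit the DNPT rats are all on slide 2 and the vehicle rats all on slide 1, so group and slide cannot be told apart. Family probes higher without overlap were 2 with normexp, with no filter on dim probes, on slide 1 alone and without DNPT rat 2 (range 1 to 2), and probes lower without overlap were 5 with 1 probe per gene and 8 to 9 with a rat left out. In the fits with the slide block and on slide 1 the change rests on DNPT rat 1 as the only DNPT sample, assumed to vary like the vehicle rats on slide 1 alone and like the other rats with the block. They gave medians of -0.47 for Ugt1a and -0.76 for Ugt2b. With a rat left out the Ugt1a median ran from -0.46 to -0.33 and the Ugt2b median from -0.60 to -0.21. The Ugt2b median was 0.99 with no filter on dim probes, which adds the 4 dim probes, and -0.92 with 1 probe per gene, which drops the second probes. In the lists, 1 gene of the D box and clock list was called higher with normexp and with an intensity trend, and without DNPT rat 1 the counts reached 1 gene of that list higher, 1 regulator lower and 1 Nrf2 target lower (each range 0 to 1). The second Ugt2b15 probe turned to -0.015 with array weights, -0.095 with slide as a block and on slide 1 alone, -0.25 without DNPT rat 3 and -0.0041 without vehicle rat 3, in a range up to 0.36. The bright Ugt1a2 probe ran from -0.59 to 0.076 with a rat left out, turning without DNPT rat 1, and Ugt1a9 from -0.072, without DNPT rat 3, to 0.47. Where no construction shows it, the cause was not tested. Replicate numbers did not appear to pair the rats: deviations of same-numbered rats correlated at -0.169, -0.0758 and -0.174. No rat correlated best with its own number, since DNPT rat 1 with vehicle rat 3 gave 0.324, DNPT rat 2 with vehicle rat 1 0.272 and DNPT rat 3 with vehicle rat 2 0.267. Deviations from a group mean depend on each other, so these correlations cannot exclude a pairing. The replicate number as a block changed no call: Ugt1a1 had an adjusted p of 0.565 and the medians of Ugt1a and Ugt2b were -0.37 and -0.40 under the replicate block.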
